A study of Mus musculus with 6 samples.

Results

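The desmosomal plaque genes examined here were Pkp1, Pkp2, Pkp3, Jup, Dsp, Ppl, Evpl and Perp. They were chosen by gene symbol, and all 8 were found among the 17866 protein-coding genes of the deposited table. RNA-seq had been performed on the separated corneal epithelium of C57BL/6 mice at 6 months of age, with 3 wild-type (WT) and 3 Rela-/- (KO) libraries. According to the study's methods, the mutant mice were Krt14-Cre; Rela f/f, so that Rela, the gene of the NF-κB subunit p65, was lost wherever the Krt14 promoter had driven Cre, which by the study's tracing included limbus, conjunctiva, eyelid glands and skin besides the cornea. Whether the control mice carried Cre or the floxed allele is not stated in the sources used here. Libraries held between 20158404 and 20880347 estimated counts. Rela itself had between 1844 and 1871 counts per WT library and between 223 and 318 per KO library (log2 fold change -2.60 with SE 0.141, edgeR adjusted p = 2.74e-06).

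Desmosomes are spot-like junctions that tie the keratin filaments of neighbouring epithelial cells to each other. Their cadherins, the desmogleins and desmocollins, cross the membrane and bind plakoglobin and the plakophilins, which in turn bind desmoplakin, and desmoplakin holds the keratins. In the epidermis, the related plakins envoplakin and periplakin also join the desmosome to the cornified envelope of the outermost cells, and the tetraspan protein Perp is needed for stable desmosomes.

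The 8 genes did not move as a group. Perp and Pkp1 were higher in KO, by 1.71-fold and 1.70-fold, while Evpl, Ppl and Pkp2 were lower, at 44.5%, 65.5% and 52.1% of their WT means. Dsp, Jup and Pkp3, at 118%, 101% and 101% of WT, did not pass the test. In numbers, 5 of the 8 members passed an adjusted p of 0.05 (edgeR quasi-likelihood test, Benjamini-Hochberg adjustment over 13305 genes), 2 of them higher and 3 lower. This share is close to the background, because 62.0% of all tested genes passed, 31.8% higher and 30.2% lower. The median log2 fold change was 0.01 over the 8 members, beside 0.01 over all tested genes. The study's stricter rule asks for a 2-fold change and an adjusted p no higher than 0.001. It was applied here to the edgeR values, not to the authors' own p-values. Of the 8 members Evpl alone met it, as a lower gene, while 19.8% of all tested genes met it, 11.6% higher and 8.24% lower. That call of Evpl was lost when any of WT replicates 1, 2 and 3 or KO replicates 2 and 3 was left out, when the count became 0. It was also lost with RLE factors, without a low-count filter and with a mean count of at least 50. The remaining alternative fits kept it, among them DESeq2 and both limma fits. The call of Evpl at 0.05 held in all 15 alternative fits. The KO and WT libraries did not overlap for the 5 called members, and they did not overlap for 68.6% of all tested genes.

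**Figure D1:**
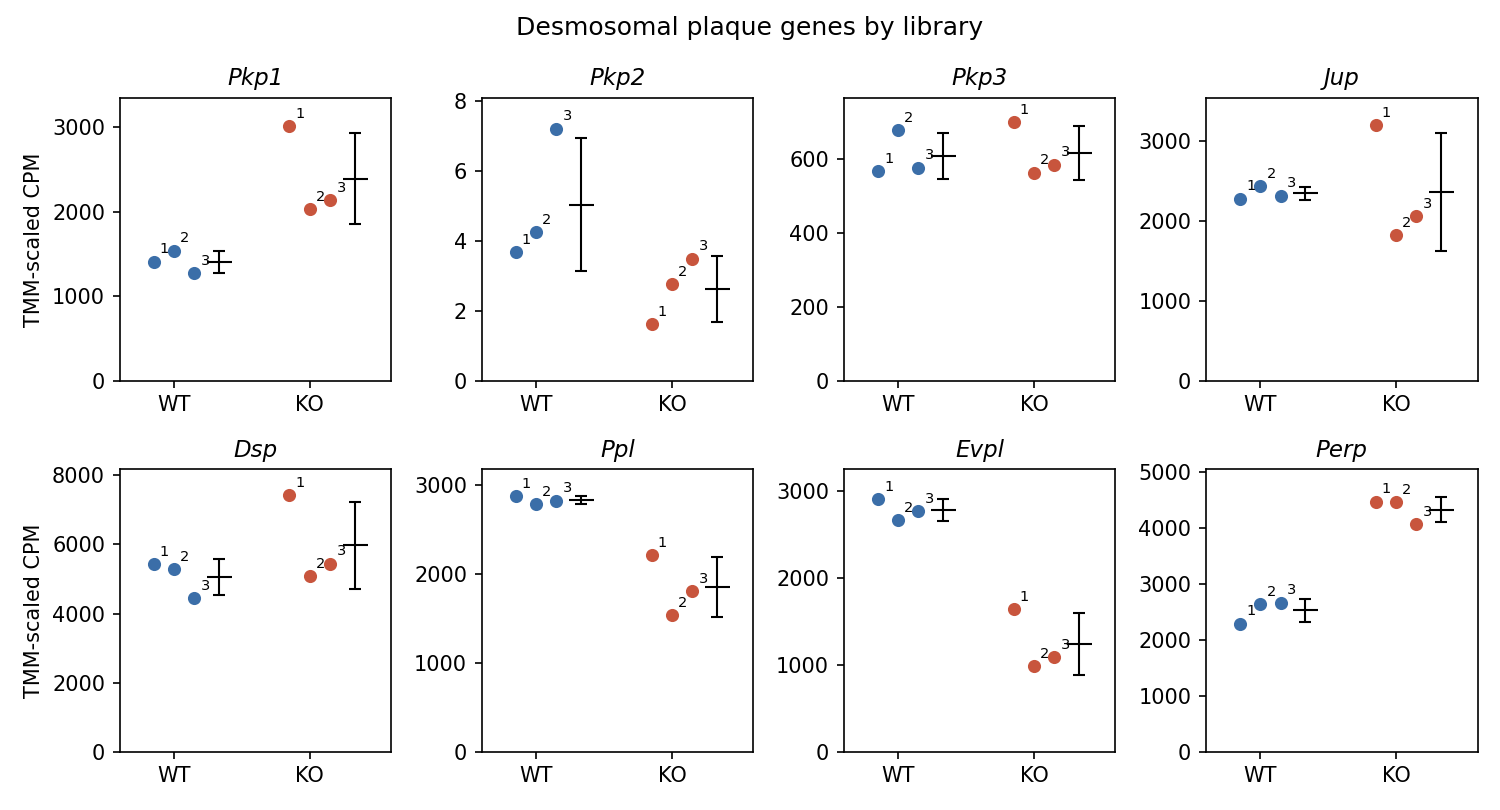
Level of each of the 8 plaque genes in TMM-scaled CPM (vertical axes, linear from 0) in the 3 WT and 3 KO libraries, numbered by replicate. Points are libraries, and black bars give the mean and SD of a group (n = 3). Perp, Pkp1, Ppl, Evpl and Pkp2 have separate groups, while KO replicate 1 lies above and the other two KO libraries lie below the WT libraries for Jup.

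Plakoglobin (Jup) and desmoplakin (Dsp), the obligate core of the plaque, were examined first. Normalized levels are given in CPM, read counts relative to library size after scaling by TMM factors. Jup (gene 16480, GRCm38 chromosome 11, positions 100368856 to 100397805, minus strand) stood at 2278, 2438 and 2316 CPM in the WT libraries and at 3197, 1818 and 2060 CPM in the KO libraries. The WT libraries thus lay close together, with a coefficient of variation of 3.56%, and the KO libraries fell on both sides of them, with 31.2%. KO minus WT came to 0.01 on the log2 scale (SE 0.203, 95% interval -0.46 to 0.47, edgeR adjusted p = 0.973), and the sign turned in 7 of 15 alternative fits, among them total counts without composition factors (-0.0901) and the fit without KO replicate 1 (-0.27, edgeR adjusted p = 0.1). Dsp (gene 109620, chromosome 13, positions 38151082 to 38198577, plus strand) had 5419, 5289 and 4451 CPM in WT and 7416, 5072 and 5442 CPM in KO. KO replicate 1 was above every WT library, and the other two KO libraries were near the WT range. On the log2 scale KO exceeded WT by 0.24 (SE 0.171, 95% interval -0.15 to 0.63, edgeR adjusted p = 0.249), and by 0.06 without KO replicate 1. The intervals leave room for a change of up to 1.39-fold upward in Jup and 1.55-fold in Dsp, so equal levels were not shown.

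Because the deleted factor belongs to NF-κB, the κB consensus, to which NF-κB dimers can bind, was searched for in the available promoters. The promoter of Jup is printed because it held a match. RefSeq promoter sequences (GRCm38.p6) were at hand for 2 of the 8 members, Jup and Dsp. The 250 bases before the Jup start (chr11:100397791-100398040, minus strand) held 2 matches on the searched strands that overlap each other, between 57 and 47 bases before the start, and these are in capitals:
Jup: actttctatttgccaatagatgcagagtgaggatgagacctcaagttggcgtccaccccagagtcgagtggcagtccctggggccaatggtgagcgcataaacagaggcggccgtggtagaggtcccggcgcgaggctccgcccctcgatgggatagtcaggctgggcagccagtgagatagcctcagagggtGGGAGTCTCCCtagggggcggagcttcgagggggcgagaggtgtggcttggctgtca
Of 32851 promoter windows of this length, 3.90% held the κB consensus on either strand. The window of Dsp (chr13:38151044-38151293, plus strand), much of which lies inside the gene as the deposited table bounds it, held 0 matches. The GC box GGGCGG occurred 2 times in Jup and 4 times in Dsp and was present in 32.7% of all windows, none of its matches overlapping the κB matches. The AP-1 site TGANTCA (6.75% of windows) and the TATA box TATAAA (12.4%) were in neither. The GC content was 62.0% for Jup and 72.4% for Dsp, beside a median of 52.4% over all windows. A match describes these letters only and was not tested for binding.

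The plakophilins are armadillo proteins that gather desmoplakin at the membrane, and they differ in where they are used. Pkp1 (gene 18772, chromosome 1, positions 135871394 to 135919207, minus strand), the plakophilin of suprabasal layers in stratified epithelium, had 1405, 1537 and 1271 CPM in WT and 3009, 2025 and 2138 CPM in KO. Every KO library was above every WT library, and KO replicate 1 was the highest. The rise was 0.77 on the log2 scale (SE 0.171, edgeR adjusted p = 0.00452), and 0.57 without KO replicate 1 (edgeR adjusted p = 0.00785).

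Pkp3 (gene 56460, chromosome 7, positions 141078229 to 141090511, plus strand), which is found in most epithelia and in all living layers of stratified ones, had 567, 678 and 576 CPM in WT and 700, 563 and 584 CPM in KO. The groups overlapped throughout. KO minus WT came to 0.02 on the log2 scale (SE 0.126, 95% interval -0.27 to 0.31, edgeR adjusted p = 0.902), and it turned to -0.0762 with total counts only and in 5 further alternative fits.

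Pkp2 (gene 67451, chromosome 16, positions 16213280 to 16272712, plus strand), the plakophilin of simple epithelia and heart muscle, was scarce. The WT libraries held 80, 91 and 152 of its reads and the KO libraries 32, 55 and 70, or between 3.66 and 7.20 CPM in WT and between 1.62 and 3.49 CPM in KO. The lowest WT library and the highest KO library were almost level. It fell by 0.94 on the log2 scale (SE 0.345, edgeR adjusted p = 0.0422). This call was lost without WT replicate 3 (-0.58, adjusted p = 0.171), without KO replicate 1 (-0.69, adjusted p = 0.118), without KO replicate 2 (-0.97, adjusted p = 0.0822) and when genes with a mean count under 50 were left out (-0.91, adjusted p = 0.0502, all edgeR). The muscle markers, which could come with tissue from outside the epithelium, were scarce, with all 5 listed genes that had a row summing to between 0.962 and 1.61 CPM in WT and between 2.28 and 2.86 CPM in KO, and Mylpf, the gene of that list with enough counts for the test, was higher. Their part in the level of Pkp2 was not tested.

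Levels of different genes were compared per length, in the deposited FPKM. Pkp1 made up 58.2% ± 1.55 of the summed plakophilin FPKM in the WT libraries and 69.9% ± 2.07 in the KO libraries (mean and SD of 3 each). Pkp3 made up most of the rest, and Pkp2 only 0.345% ± 0.154 and 0.133% ± 0.0619. Pkp1 was therefore the main plakophilin transcript in both genotypes, and its share was greater in each KO library than in any WT library. The summed plakophilin FPKM was 529 ± 52.3 in WT and 696 ± 124 in KO.

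Envoplakin and periplakin form a heterodimer beneath the plasma membrane. Ppl (gene 19041, chromosome 16, positions 5086291 to 5132481, on the minus strand in GENCODE and on the plus strand in the deposited table) had 2875, 2788 and 2824 CPM in WT and 2214, 1536 and 1811 CPM in KO. All KO libraries were below all WT libraries, and the WT libraries were nearly equal. It fell by 0.61 on the log2 scale (SE 0.147, edgeR adjusted p = 0.00681). Evpl (gene 14027, chromosome 11, positions 116220559 to 116238091, minus strand) had 2904, 2659 and 2767 CPM in WT and 1641, 981 and 1085 CPM in KO. It was the member with the largest drop, again with no overlap. KO minus WT came to -1.17 on the log2 scale (SE 0.193, edgeR adjusted p = 9.49e-04) and lay between -1.43 and -1.03 over the 15 alternative fits.

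The partners were not lowered equally. In WT, the FPKM of Evpl was 0.991, 0.935 and 0.961 times that of Ppl, so that both transcripts were about equally abundant per length. In KO the ratio was 0.727, 0.627 and 0.588. This ratio is taken within a library and does not depend on the scaling between libraries. It fell by 0.58 on the log2 scale, with no overlap between the groups. By two-sided exact permutation p was 0.1, which is the smallest value that 3 libraries against 3 allow (p = 0.12 after Benjamini-Hochberg adjustment over the 6 ratios computed).

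Of the other ratios, Pkp1/Pkp3 rose in every KO library beyond the WT range, from between 1.33 and 1.5 to between 2.19 and 2.61 (log2 difference 0.74, exact p = 0.1). Pkp1/Pkp2 and Pkp2/Pkp3 differed by 1.70 and -0.96 on the log2 scale (exact p = 0.1 for both), with SDs of up to 0.86 within a group. Perp/Dsp went from between 2.08 and 2.89 to between 2.93 and 4.24 (log2 difference 0.55, exact p = 0.1), and the nearest WT and KO libraries were close. Jup/Dsp overlapped between the groups, with a log2 difference of -0.27 (exact p = 0.2). After adjustment the p-values of these ratios were 0.12, and 0.2 for Jup/Dsp.

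**Figure D2:**
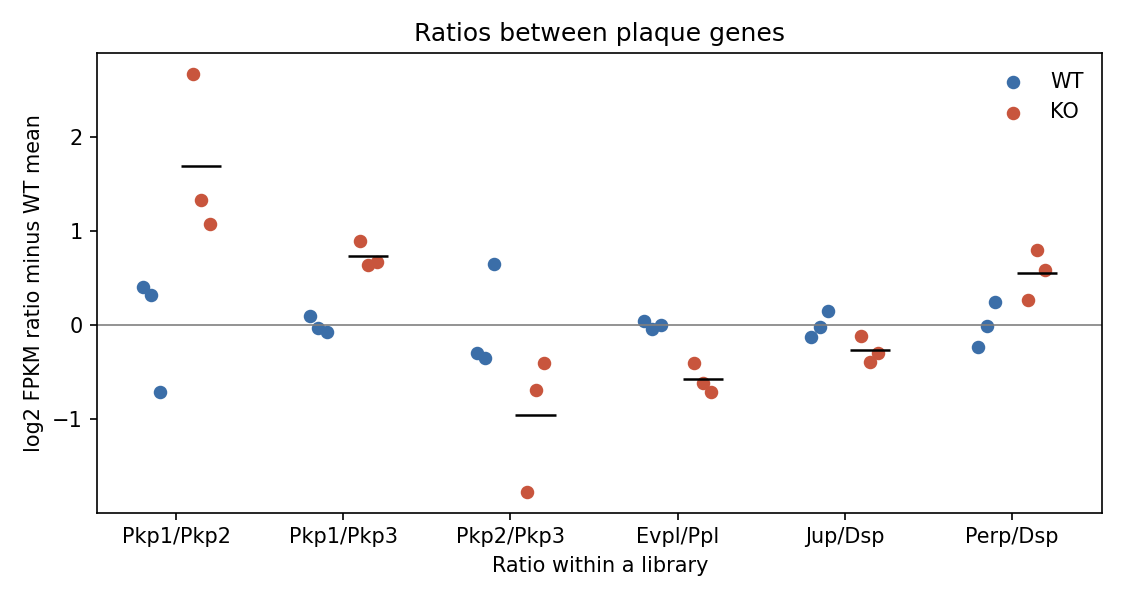
Log2 FPKM ratio of member pairs within each library, minus the WT mean of that ratio (vertical axis). Blue points are WT and red points KO libraries, and black lines are KO means. Evpl/Ppl lies below and Pkp1/Pkp3 above all WT libraries in each KO library, while Jup/Dsp overlaps.

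Perp (gene 64058, chromosome 10, positions 18845071 to 18857073, plus strand), which encodes a tetraspan membrane protein of desmosomes that is controlled by p63 and p53, had 2290, 2636 and 2662 CPM in WT and 4470, 4454 and 4061 CPM in KO. The KO libraries were alike, with a coefficient of variation of 5.35%, and all were well above WT. The rise was 0.77 on the log2 scale (SE 0.120, edgeR adjusted p = 6.47e-04), and lay between 0.68 and 0.83 over the 15 alternative fits. Per length Perp was the most abundant of the 8 in both genotypes, at 1376 ± 90.8 FPKM in WT and 2201 ± 135 FPKM in KO (SD, n = 3 each), and it ranked 26 in WT and 27 in KO among all 17866 genes.

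In WT the order per length was Perp, then Jup at 726 ± 27.2, Dsp at 566 ± 65.2, Ppl at 460 ± 14.7, Evpl at 443 ± 25.7, Pkp1 at 308 ± 32.6, Pkp3 at 220 ± 22.4 and Pkp2 at 1.78 ± 0.636 FPKM (mean ± SD, n = 3). The spreads of Ppl and Evpl overlapped, although Ppl was above Evpl within each WT library. In KO the order was Perp, then Jup at 676 ± 201, Dsp at 623 ± 121, Pkp1 at 488 ± 102, Ppl at 281 ± 46.8, Pkp3 at 207 ± 21.6, Evpl at 184 ± 49.8 and Pkp2 at 0.873 ± 0.315 FPKM. Jup, Dsp and Pkp1 had overlapping spreads there, as had Pkp3 and Evpl. Within each KO library, however, Jup and Dsp were both above Pkp1. The order of Jup and Dsp and that of Pkp3 and Evpl varied between the KO libraries. Pkp1 thus passed both Ppl and Evpl in the KO order. All but Pkp2 were among the most abundant of the epithelium in both genotypes, with ranks from 26 to 380 by FPKM, whereas Pkp2 ranked 10127 in WT and 11377 in KO.

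As a share of the summed FPKM of the 8 genes, Perp took 33.6% ± 2.28 in WT and 47.6% ± 5.28 in KO. Evpl took 10.8% ± 0.797 and 3.90% ± 0.578, and Ppl 11.2% ± 0.511 and 6.02% ± 0.525 (SD, n = 3 each). The gain of Perp was 14.0 percentage points per length and 9.05 in counts not divided by length. Jup took 17.7% ± 0.0702 in WT and 14.3% ± 2.49 in KO, and Dsp 13.8% ± 1.34 and 13.3% ± 0.985. The 8 genes jointly held 1.81% ± 0.0918 of the estimated counts of a WT library and 1.81% ± 0.298 of those of a KO library.

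**Figure D3:**
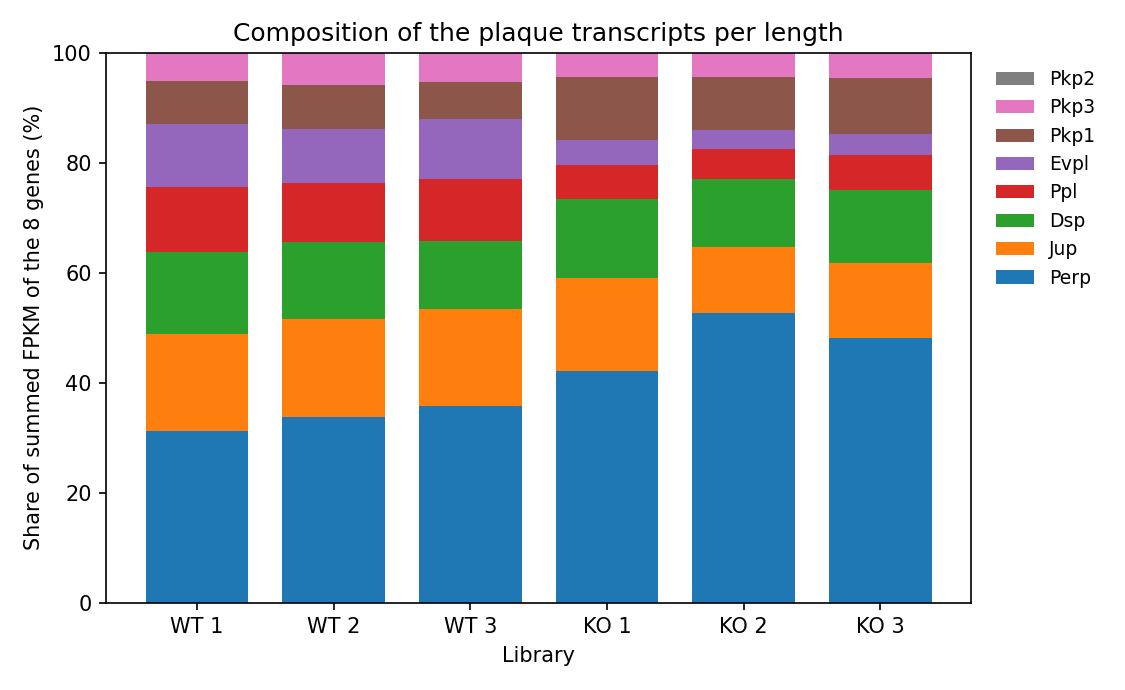
Share of each gene in the summed FPKM of the 8 plaque genes (vertical axis, percent) in each of the 6 libraries. Each bar is a library and adds to 100%. The Perp part grows from a WT mean of 33.6% to a KO mean of 47.6%, and the Ppl and Evpl parts shrink.

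Differences between the KO libraries ran through most members. KO replicate 1 had the highest level of its group for 7 of the 8 genes and the lowest for Pkp2. For 6 of them, Pkp1, Pkp3, Jup, Dsp, Ppl and Evpl, the KO libraries stood in the order replicate 1, replicate 3, replicate 2. The summed CPM of the epidermal markers Krt1, Krt10, Krt2, Flg and Lor had the same order, at 22708, 13484 and 10145 CPM, beside between 15.1 and 20.1 CPM in WT. So had the sums of the other plakins (989, 977 and 911 CPM) and of the adherens junction and related armadillo genes (2533, 2514 and 2334 CPM). In both of these, replicates 1 and 3 were close. All remaining lists stood in other orders. The desmosomal cadherins had replicate 2, replicate 1, replicate 3, and the corneal markers had replicate 2, replicate 3, replicate 1. The cornified envelope genes and the conjunctival and goblet cell list both had replicate 1, replicate 2, replicate 3, which was also the order of Perp. The endothelial list, which stayed under 1 CPM, had replicate 3, replicate 2, replicate 1, the order of Pkp2. How many of all tested genes share these orders was not computed, so the counts of members have no background beside them. The part of these lists in the spread of the plaque genes was not tested. Without KO replicate 1 the count of members called was 2 higher and 2 lower, since Pkp2 no longer passed. In that fit 4209 genes were higher and 3936 lower of 13516 tested. The same count of members arose without WT replicate 3 and without KO replicate 2.

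Other cell types could lie in the sampled tissue, and in bulk RNA fewer cells of a type cannot be told apart from less RNA per cell. The corneal list Krt12, Aldh3a1, Pax6, Krt5 and Tkt summed to between 91445 and 94809 CPM in WT and between 21192 and 23781 CPM in KO. All 5 of 5 were lower, beside 30.2% of all tested genes. Krt5, which is not particular to the cornea, held a large part of these sums, with means of 26958 CPM in WT and 10547 CPM in KO. Of the conjunctival and goblet cell list 4 of 5 were higher, beside 31.8% of all tested genes, and Muc4 was lower, and the list summed to between 9091 and 11196 CPM in WT and between 55972 and 69731 CPM in KO, with Muc5ac at 0 counts in each WT library. Muc4 made up most of the WT sum, at a mean of 7941 CPM in WT and 3227 CPM in KO. Krt13 went from 1972 to 38248 CPM and Krt4 from 149 to 21745 CPM. Of the epidermal list 4 of the 4 tested were higher, and Krt2 had at most 3 counts in any library. The stromal list summed to at most 2.74 CPM in WT and between 13.6 and 23.3 CPM in KO. The 4 tested of its 7 genes were higher. Lum, which was too scarce for the test, had 0 counts in each WT library and 2, 4 and 1 in the KO libraries. Of the leukocyte list 4 of 5 tested were higher and Itgam was lower, for a sum of between 239 and 321 CPM in WT and between 257 and 332 CPM in KO. Itgam made up most of that sum, at a mean of 266 CPM in WT and 175 CPM in KO, while Cd74 went from 7.99 to 64.3 CPM, H2-Ab1 from 2.16 to 29.2 CPM and Ptprc from 0.402 to 5.27 CPM. The endothelial list stayed under 1 CPM, and its tested gene, Pecam1, was higher. Kdr, also too scarce for the test, had 0 counts in each WT library and 0, 1 and 2 in the KO libraries. The part of these cell types in the levels of the plaque genes was not tested.

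Of the 9 desmosomal cadherins, to which the plaque binds, 8 had enough counts for the test, and 4 were higher and 1 lower. This count of 5 called of 8 is at the background of 62.0% of all tested genes. Dsc1, the desmocollin of upper epidermal layers, went from 2.26 ± 0.340 to 623 ± 243 CPM (log2 fold change 8.10, adjusted p = 1.48e-06, edgeR). Dsg1b rose from 142 ± 7.48 to 757 ± 102 CPM, Dsg3 from 590 ± 114 to 1264 ± 147 CPM and Dsc2 from 1392 ± 170 to 2230 ± 187 CPM (SD, n = 3 each). Dsg2, the desmoglein of simple and proliferating epithelia, fell from 78.7 ± 7.46 to 49.7 ± 1.87 CPM (log2 fold change -0.66). Dsg1a (-0.38, adjusted p = 0.169), Dsc3 (-0.17, adjusted p = 0.304) and Dsg1c (0.23, adjusted p = 0.636, edgeR) did not pass, and the sign for Dsg1c turned without WT replicate 2. Dsg4 had at most 8 counts in any library and was not tested. Dsg1a, Dsg1b and Dsg1c are near-identical copies, so reads may have been split among them and their levels are uncertain.

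Per length, the summed cadherin FPKM was 945 ± 66.3 in WT and 1358 ± 176 in KO, while the summed FPKM of Ppl and Evpl went from 904 ± 40.0 to 464 ± 95.7 (SD, n = 3 each). Dsc1 held 0.0490% ± 0.00663 of the cadherin FPKM in WT and 8.68% ± 3.03 in KO, and Dsc3 20.6% ± 0.971 and 11.9% ± 0.802. Dsc2 held the largest part in both genotypes, with 32.6% ± 2.08 and 34.1% ± 2.79.

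**Figure D4:**
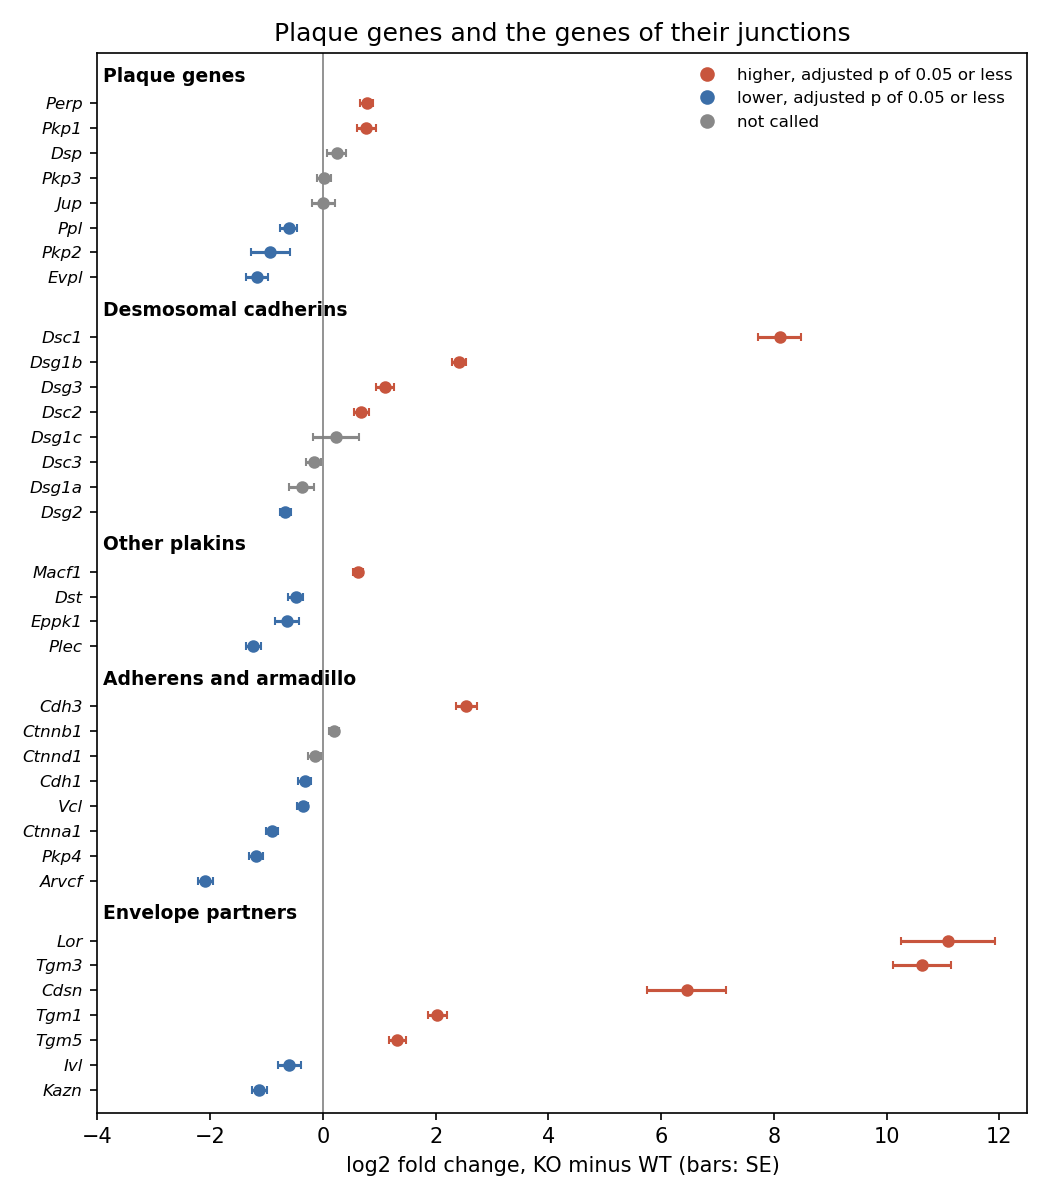
Log2 fold change between KO and WT (horizontal axis, positive values are higher in KO) with its SE for the 8 plaque genes and for 4 lists of junction genes. Red and blue points passed an adjusted p of 0.05 as higher or lower in KO, and grey points did not. The plaque genes lie between -1.17 and 0.77, and Dsc1, Tgm3 and Lor lie above 8.

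The other plakins, large proteins that link filaments to junctions and to each other, were 3 lower and 1 higher of 4, beside 30.2% lower and 31.8% higher among all tested genes. Plec, which encodes plectin, fell from 603 ± 31.2 to 256 ± 44.6 CPM (log2 fold change -1.23, adjusted p = 1.02e-04, edgeR). Dst, whose epithelial form binds keratins at hemidesmosomes, had a log2 fold change of -0.48 (adjusted p = 0.0143, edgeR) and lost its call without WT replicate 1 (adjusted p = 0.057). Eppk1, for epiplakin, had -0.64 (adjusted p = 0.0267, edgeR) and lost its call without WT replicate 1, WT replicate 3 or KO replicate 1 (adjusted p of 0.053, 0.0792 and 0.0529). Macf1, a crosslinker of actin and microtubules, rose by 0.62 on the log2 scale (edgeR adjusted p = 6.20e-04).

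Among 8 adherens junction and related armadillo genes, 1 was higher and 5 were lower, where 62.0% of all tested genes passed and 30.2% were lower. Cdh3, for P-cadherin, rose from 12.1 ± 2.69 to 70.8 ± 11.8 CPM (log2 fold change 2.54, adjusted p = 1.41e-05, edgeR). Arvcf and Pkp4, armadillo proteins related to the plakophilins, had log2 fold changes of -2.08 and -1.18 (adjusted p of 7.80e-06 and 7.54e-05, edgeR). Ctnna1, Vcl and Cdh1 also passed as lower, Ctnnb1 and Ctnnd1 did not pass, although Ctnnb1 passed with DESeq2 (adjusted p = 0.0193) and Ctnnd1 with both limma fits (adjusted p of 0.0377 and 0.038), and the call of Cdh1 (-0.32, adjusted p = 0.0396, edgeR) was lost in 6 alternative fits, namely with a mean count of at least 50, without any 1 of the WT libraries and without KO replicate 2 or 3 (adjusted p of between 0.0556 and 0.131).

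Genes that meet the plakins at the cornified envelope were, of 7, 5 higher and 2 lower, beside 31.8% higher and 30.2% lower among all tested genes. Lor, Tgm3 and Cdsn, for a structural protein, a crosslinking enzyme and a desmosome-associated adhesion protein, had the largest log2 fold changes, 11.09, 10.63 and 6.45 (adjusted p of 1.40e-05, 1.78e-06 and 1.02e-04, edgeR). The 2 lower genes, named after their values were seen, were Kazn, for the periplakin partner kazrin (-1.13, adjusted p = 1.46e-04, edgeR), and Ivl, an early envelope protein (-0.60, adjusted p = 0.0333, edgeR). The call of Ivl was lost with the replicate block (adjusted p = 0.0637) and without WT replicate 2, WT replicate 3 or KO replicate 2 (adjusted p of 0.106, 0.089 and 0.0964). Ppl, Evpl and Kazn were thus lower in the same KO libraries in which Lor and Tgm3 were higher.

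The genes whose pattern was most like that of a member were searched among the other tested genes with a mean of at least 10 CPM (8984, and 8985 for Pkp2), by the root mean square difference of log2 CPM over the 6 libraries after subtracting each WT mean. The nearest were Tead3 and Zbtb7a to Ppl (0.0321 and 0.0339), Cgn and Rreb1 to Evpl (0.0607 and 0.0865), and Gtf2ird1 and Dock6 to Pkp1 (0.0616 and 0.0781). For the members that did not pass they were Sipa1l2 and Rnf208 to Jup (0.0474 and 0.059), Efna3 and 5031439G07Rik to Dsp (0.0552 and 0.0634) and Pgrmc2 and Fam83f to Pkp3 (0.0375 and 0.0476). For Pkp2 the distances were larger, with 0.190 for Xlr4b and 0.220 for Akr1b7. Its own level lay under the limit of 10 CPM, so genes as scarce as Pkp2 were not searched. Whether it has a close match was therefore not tested. Only the 2 nearest genes were kept per member, and the distance includes the change between genotypes. None of the 8 plaque genes was among the nearest genes of another, which does not tell if they vary together.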

How the data were processed

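The authors filtered single-end reads of rRNA-depleted RNA with SOAPnuke, aligned them with Bowtie2 and deposited RSEM estimated counts, FPKM and TPM for each library (Bowtie2 2.2.5 and RSEM 1.2.12 in the submitters' processing notes). These notes name mm9, whereas the deposited gene positions are of GRCm38 and are given as in the table. The authors' FPKM scales for effective gene length and depth, and their deposited TPM was used only as an alternative. The table also held group means and the log2 fold changes and p-values of the authors' own DESeq2 comparison, which were not used. No source says if strand was used in counting, so a gene and an overlapping neighbour may share reads.

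Groups came from the titles. Estimated counts were rounded and fitted on the whole table with edgeR 4.0.16 in R 4.3.3 (TMM, filterByExpr, glmQLFit and glmQLFTest, genotype as the only term), and p-values were adjusted over the 13305 genes tested. SE is the size of the log2 change over the root of F, and 95% intervals use the t distribution. Ratios were tested by two-sided exact permutation (scipy 1.17.1). Only the main edgeR fit was tested on simulated counts, drawn at a fixed dispersion with 200 of 13146 genes changed. This is a far smaller part than passed in the real data. Of the simulated 2-fold changes 87.8% were recovered.

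The members and lists were chosen with earlier results of these data known. Genes named are Rela, the members, all cadherins and other plakins, at most 3 of each other list by size of change, and the 2 nearest genes of each member (those of Perp are not reported here). Other genes of the lists named beside a count or a level were picked after their values were seen. In the stromal and leukocyte lists, the tested genes with the largest log2 fold changes, Dcn (6.93) and Lyz2 (7.11), were not named above. Alternatives were DESeq2 1.42.0, RLE, total counts, TMM without the 20 highest genes, 2 other filters, the replicate block, limma 3.58.1 on log2(FPKM + 1) or log2(FPKM + 0.1), and leaving out each library. Of the listed symbols, Kera, Cdh5, Emcn and Myh6 were not analysed here. P-values measure the spread between libraries, each from a separate biological sample per the study's methods.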

Additional observations from a re-analysis of the deposited data

How the results depend on the processing

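Over 15 alternative fits, Pkp1, Perp, Ppl and Evpl kept their direction and their call, and Dsp stayed uncalled with a log2 fold change between 0.06 and 0.35. Pkp2 lost its call in 4 fits, with values between -1.20 and -0.56 over all 15. The count of members past the study threshold was 1, and 0 with RLE factors, without a low-count filter and with a mean count of at least 50, and between 0 and 1 when a library was left out. The count of other plakins called was 4, and between 2 and 4 when a library was left out. The sign of Jup, whose call was never made, turned with total counts (-0.0901), no low-count filter (-0.0104), the replicate block (-0.0353), and limma on log2(FPKM + 1) and log2(FPKM + 0.1) (-0.14 in both), and that of Pkp3 with total counts (-0.0762) and with both limma fits (-0.0859 and -0.0862). Without single libraries, Jup lay between -0.27 (KO replicate 1) and 0.165 (KO replicate 2), below 0 also without WT replicate 1 (-0.00288), and Pkp3 between -0.0817 (KO replicate 1) and 0.114 (WT replicate 2), below 0 also without WT replicate 1 (-0.0188) or WT replicate 3 (-0.00225). The causes were not tested.

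The replicate block, which treats equal replicate numbers as pairs, gave 2 members higher and 3 lower, as in the fit without it. The titles do not say if the numbers pair animals. Same-numbered libraries had deviations correlated at 0.0345, -0.00998 and 0.0606. Of all libraries, only WT replicate 3 correlated best with the library of its own number. The highest value, 0.123, was between WT replicate 1 and KO replicate 2. With 3 libraries per group these values cannot decide whether animals were paired. Among all genes the replicate block gave 4149 higher and 3934 lower calls, beside 4231 and 4022. With counts not divided by length, the differences in share (KO minus WT, percentage points) became 4.69 for Pkp1, -0.15 for Pkp3, -0.98 for Jup (-3.38 per length), 9.05 for Perp (14.0 per length), 2.995 for Dsp (-0.481 per length), -6.25 for Ppl and -9.33 for Evpl, because longer transcripts then weigh more. TPM in place of FPKM kept the sign of all 6 ratios. Pkp2 had the fewest counts of the members, at most 152, and the other members had at least 11220.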
